A study of Mus musculus with 30 samples.

Results

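The immunity-related GTPases measured here were Igtp, Irgm1, Irgm2, Iigp1, Tgtp1 and Ifi47, which are 6 of the 17097 genes on the arrays. Each was taken from the probe sets assigned to its symbol alone, and the probe set with the highest mean level represented a gene that had several. The 6 genes had 7 such probe sets, since Iigp1 had a second one. Testis, brain, heart, skeletal muscle and liver RNA was measured on 30 Affymetrix mouse expression arrays, 3 for each tissue of mice lacking Clpp (labelled ClpP KO) and 3 for each tissue of their wild-type littermates, all on a C57BL/6 background. Clpp encodes the proteolytic subunit of a protease of the mitochondrial matrix. The labels used here give no age, sex or treatment and do not describe the knockout allele. Nothing in them states that the replicates came from different animals, or whether 1 animal gave all 5 tissues, so the tests measure the spread between these samples. Values are log2 expression, and changes are knockout minus wild type on the log2 scale with the standard error (SE) of the limma fit and n = 3 arrays per genotype. A change was called where its p-value, adjusted by Benjamini-Hochberg over all 17097 genes of a comparison, was below 0.05. The tissues are bulk samples, in which a change in the number of cells of a type and a change in the RNA per cell cannot be told apart.

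Immunity-related GTPases, also called p47 GTPases, are cytosolic and membrane-bound proteins that mouse cells make in response to interferons, above all interferon-gamma. The effector proteins, among them Iigp1, Tgtp1 and Ifi47, load onto the vacuole of an intracellular parasite such as Toxoplasma gondii and disrupt its membrane. The regulators Irgm1, Irgm2 and Igtp sit on the cell's own membranes, where they hold the effectors in the inactive state and keep them off these membranes. Interferon-gamma acts through the kinases Jak1 and Jak2 and, at promoters, through gamma-activated sites (GAS). Type I interferons act through interferon-stimulated response elements (ISRE).

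The promoter letters of the members on chromosome 11 were searched for the kinds of element through which interferons act, and are shown here. RefSeq stretches from GRCm38.p6 were matched for 5 of the 6 members. Each lies just upstream of the gene's annotated start, is written 5′ to 3′ on the gene's own strand, and has in capitals each match to an ISRE core (GAAA, any 2 bases, GAAA) or a GAS (TTC, any 3 bases, GAA).
Igtp: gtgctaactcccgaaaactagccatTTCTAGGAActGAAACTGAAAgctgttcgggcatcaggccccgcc
Irgm2: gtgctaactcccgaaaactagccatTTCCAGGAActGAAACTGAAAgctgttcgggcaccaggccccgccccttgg
Tgtp1: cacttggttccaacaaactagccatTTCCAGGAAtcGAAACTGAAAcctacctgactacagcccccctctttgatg
Irgm1: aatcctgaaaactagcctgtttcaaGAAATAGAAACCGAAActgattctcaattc
Ifi47: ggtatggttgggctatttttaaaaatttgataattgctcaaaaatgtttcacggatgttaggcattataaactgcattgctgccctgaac
The Igtp stretch lies at chr11:58199486-58199555 on the plus strand and the Irgm2 stretch at chr11:58214877-58214952 on the plus strand. The Tgtp1 stretch lies at chr11:48992284-48992359 and the Irgm1 stretch at chr11:48871421-48871475, both on the minus strand. The Ifi47 stretch lies at chr11:49076497-49076586 on the plus strand.

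In Igtp, Irgm2 and Tgtp1 a GAS stood just before an ISRE core, and the first letters of the pair were 11 bases apart in each. The Igtp and Irgm2 stretches differed at 2 of the 70 bases compared, and 1 of these differences lies inside the GAS. Irgm1 had 2 ISRE cores that overlap each other and no GAS, and Ifi47 had neither motif in the 250 bases before its start. Both strands of the 250 bases before each start were searched in 32851 windows. An ISRE core was found in 978 windows (2.98%) and a GAS in 2306 (7.02%). A GAS starting 11 bases before an ISRE core was found in 5 windows (0.0152%), those of Igtp, Irgm2, Tgtp1, Tgtp2 and Gm12185, of which the last pair are family genes as well. That spacing was chosen after the letters of the members had been read, and a match of letters does not show that a factor binds there. Igtp and Irgm2 are next to each other on chromosome 11, and Tgtp1 lies close to Tgtp2 and Ifi47 in another cluster. Tgtp1 and Tgtp2 are near-identical copies, so the probe set of Tgtp1 may also read Tgtp2.

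The arrays matched their labels for the targeted gene, since Clpp read 2.93 to 3.99 on the 15 knockout arrays and 5.88 to 9.21 on the 15 wild-type arrays. Median values of the arrays ran from 3.24 to 3.38. Markers of hepatocytes, skeletal muscle, brain, heart and sperm were high in the wild-type arrays of their own tissue. Some arrays stood apart. Muscle wild-type replicate 1 held sperm transcripts (median of the sperm markers 5.81, against 2.78 to 2.97 on the other muscle arrays), testis wild-type replicate 3 held epididymis transcripts (median 10.7), and heart knockout replicates 2 and 3 held genes of the atrium (Myl7, the atrial myosin light chain, at 12.6 and 12.8, against 3.59 on replicate 1 and 2.95 to 7.42 on the wild-type arrays). Muscle and heart knockout replicate 1 held liver transcripts, described with the arrays of those tissues.

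In wild-type mice the 6 genes were highest in liver or heart and lowest in testis. Igtp stood at 6.80 ± 0.30 (SD, n = 3) in liver, 6.53 ± 0.25 in heart, 5.92 ± 0.11 in muscle, 3.63 ± 0.06 in brain and 2.78 ± 0.17 in testis. Iigp1 spanned the widest range, from 11.03 ± 0.14 in liver to 3.47 ± 0.15 in testis. The order liver, heart, muscle, brain, testis held for Igtp, Irgm1, Irgm2, Iigp1 and Ifi47, and the order of Tgtp1 was heart, muscle, liver, brain, testis. Of the 24 neighbouring pairs in these orders, 16 differed in limma at an adjusted p below 0.05. Of all genes, 48% differed between wild-type liver and heart, 35.9% between heart and muscle, 59.4% between muscle and brain and 69.1% between brain and testis, and for the pairs in the order of Tgtp1 49.8% between muscle and liver and 60.7% between liver and brain. Differences between tissues were thus common among genes in general.

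The neighbours that did not differ beyond their spread were mostly heart and muscle, or brain and testis. For Igtp these were liver and heart (adjusted p = 0.550) and heart and muscle (adjusted p = 0.154). Irgm1 and Irgm2 did not pass between heart and muscle (adjusted p = 0.716 and 0.403). Irgm2, Iigp1 and Ifi47 did not pass between brain and testis (adjusted p = 0.196, 0.986 and 0.244), where all of these levels were close to the array medians. Tgtp1 in muscle and liver did not pass either (adjusted p = 0.308).

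**Figure D1:**
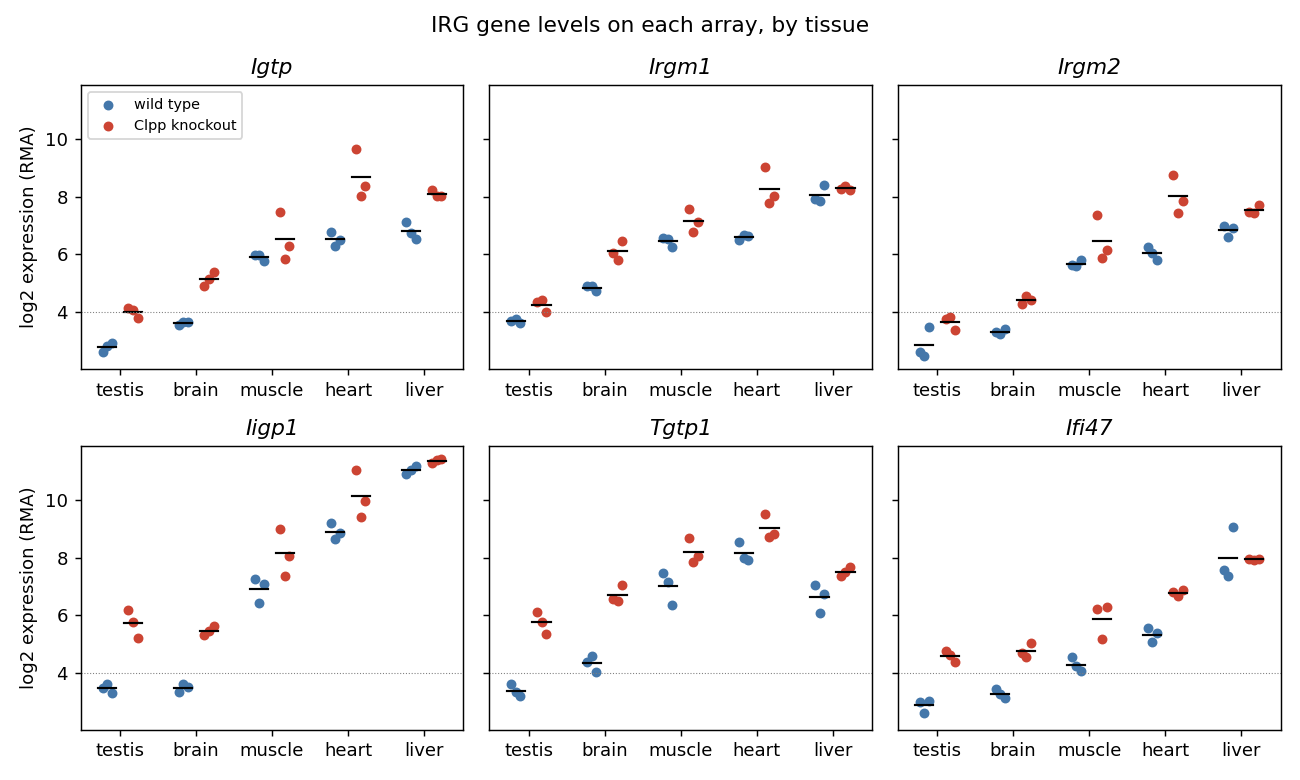
Level of each gene on each array (vertical axis, log2 expression) by tissue, ordered from testis to liver. Blue points are wild-type arrays, red points are Clpp knockout arrays, bars are means of 3 arrays, and the dotted line marks a level of 4. The red points sit above the blue ones in most panels, and Ifi47 in liver shows a single wild-type array at 9.07, above the knockout arrays.

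Across the 30 combinations of gene and tissue, the knockout mean was the higher one in 29, and all 3 knockout arrays lay above all 3 wild-type arrays in 26. Of the 30 changes 19 were called, and each was higher in knockout. All 6 genes were called in testis, 5 in brain, 5 in heart, 2 in muscle and 1 in liver. With each tissue fitted alone, none was called in muscle and 1 in heart. The share of all genes called higher was 32.8% in testis, 0.234% in brain, 1.11% in heart, 0.778% in muscle and 0.912% in liver, and the share called lower was 23.4%, 0.181%, 1.07%, 0.76% and 1.5% in the same order. All knockout arrays lay above all wild-type arrays for 5 of the 6 members in testis, 6 in brain, 6 in heart, 5 in muscle and 4 in liver. The matching shares of all genes were 35.3%, 9.18%, 7.73%, 9.36% and 7.9%. The median change of the 6 genes was 1.46 in testis, 1.5 in brain, 1.57 in heart, 0.99 in muscle and 0.52 in liver, while the median over all genes lay between -0.01 and 0.02 in each tissue. In 10 of the 30 combinations, all 6 in testis and 4 in brain, the lower of the group means was under 4, and the size of such a change is uncertain because arrays separate low levels poorly.

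**Figure D2:**
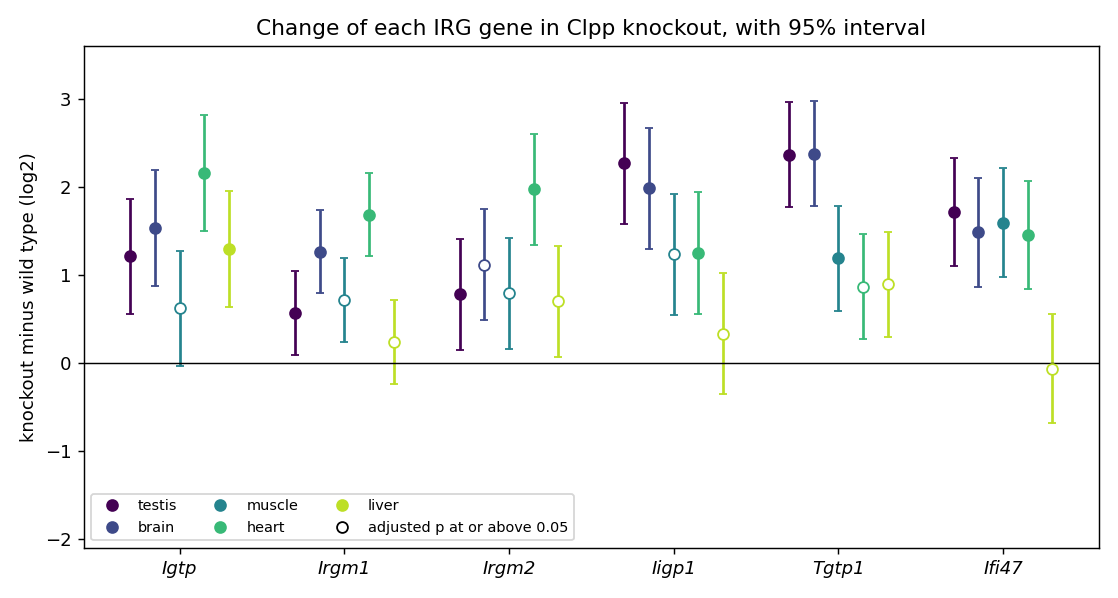
Knockout minus wild type (vertical axis, log2) of each gene in each tissue, with 95% intervals from the limma fit (3 arrays per genotype). Filled points are changes with an adjusted p below 0.05 and open points are not called. The liver points of Irgm1, Iigp1 and Ifi47 lie nearest to 0, and the heart points of Igtp, Irgm1 and Irgm2 are each that gene's highest.

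Igtp, also called Irgm3, is one of the regulators and was the gene called in liver. Its knockout arrays in testis read 4.13, 4.06 and 3.79, against 2.6, 2.82 and 2.93 in wild type. In liver they read 8.23, 8.02 and 8.03 against 7.12, 6.73 and 6.54. Genotypes did not overlap in either tissue, and the changes were 1.21 ± 0.32 (SE; limma adjusted p = 0.0020) and 1.29 ± 0.32 (adjusted p = 0.0255). The liver call was lost when any liver array other than wild-type replicate 1 was left out, at adjusted p-values between 0.0511 and 0.105. In brain the knockout arrays read 4.92, 5.16 and 5.39 and the wild-type arrays 3.56, 3.67 and 3.65. Heart read 9.68, 8.02 and 8.36 in knockout and 6.79, 6.30 and 6.49 in wild type. Both tissues showed complete separation, with changes of 1.53 (adjusted p = 0.0223) and 2.16 (adjusted p = 0.000186). In muscle the knockout arrays read 7.48, 5.84 and 6.28 against 5.99, 5.98 and 5.79, so 1 array was high and another lay within the wild-type range. That change of 0.62 was not called (adjusted p = 0.435).

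Irgm1, a regulator found on the Golgi and on lysosomes, changed most in heart and brain. Heart knockout arrays read 9.03, 7.79 and 8.04 against 6.49, 6.67 and 6.65 in wild type. Brain knockout arrays read 6.06, 5.81 and 6.46 against 4.92, 4.89 and 4.73. Every knockout array of these tissues lay above every wild-type array, and the changes were 1.68 ± 0.23 (SE; limma adjusted p = 6.21e-05) and 1.26 ± 0.23 (adjusted p = 0.00631). In testis the arrays read 4.35, 4.43 and 4.0 in knockout and 3.68, 3.77 and 3.63 in wild type. The testis change of 0.57 was the smallest one called (adjusted p = 0.0385), and leaving out any testis array other than knockout replicate 3 ended the call. Muscle knockout arrays read 7.59, 6.79 and 7.14 against 6.58, 6.55 and 6.25, which is higher without overlap, but the change of 0.71 was not called (adjusted p = 0.140). In liver the arrays overlapped, at 8.28, 8.39 and 8.25 in knockout and 7.94, 7.87 and 8.41 in wild type, and the change was 0.23 (95% interval -0.25 to 0.71; adjusted p = 0.809).

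Irgm2, the third regulator, was called in heart and testis. Heart knockout arrays read 8.77, 7.42 and 7.85 against 6.28, 6.06 and 5.80 in wild type, a change of 1.97 ± 0.30 (SE; limma adjusted p = 0.000356). Testis arrays read 3.75, 3.82 and 3.37 in knockout and 2.63, 2.47 and 3.49 in wild type. The testis groups overlapped through wild-type replicate 3, the array with epididymis transcripts, and both means were under 4. The testis change was 0.78 (adjusted p = 0.0319) with that array and 1.09 (adjusted p = 0.00458) without it, and it lost its call without any one of knockout replicates 1 and 2 and wild-type replicates 1 and 2 (adjusted p = 0.0841, 0.101, 0.115 and 0.157). In brain the knockout arrays read 4.29, 4.57 and 4.43 against 3.30, 3.23 and 3.42. The brain groups were fully separate, but the change of 1.11 was not called (adjusted p = 0.158). Muscle read 7.36, 5.87 and 6.16 in knockout and 5.63, 5.6 and 5.79 in wild type, and liver read 7.46, 7.44 and 7.71 against 6.99, 6.60 and 6.92. Knockout was higher without overlap in both of these tissues, and neither the change of 0.79 in muscle (adjusted p = 0.239) nor that of 0.70 in liver (adjusted p = 0.304) was called.

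Iigp1, also called Irga6, is the best described effector. In testis its knockout arrays read 6.19, 5.78 and 5.22 against 3.48, 3.61 and 3.31 in wild type. Brain knockout arrays read 5.30, 5.45 and 5.61 against 3.32, 3.61 and 3.49. Wild-type levels were near the array medians in both tissues and the knockout levels well above them, with changes of 2.27 ± 0.33 (SE; limma adjusted p = 1.94e-06) and 1.98 ± 0.33 (adjusted p = 0.00238). Heart read 11.05, 9.41 and 9.97 in knockout and 9.21, 8.65 and 8.84 in wild type. The heart change of 1.24 was at the threshold (adjusted p = 0.0486), fell to 0.79 (adjusted p = 0.197) without knockout replicate 1, and was not called in 22 of the 30 fits that left out 1 array. Muscle read 9.01, 7.37 and 8.06 in knockout and 7.25, 6.42 and 7.07 in wild type, a change of 1.23 that was not called (adjusted p = 0.0624). Liver held the highest levels, 11.28, 11.38 and 11.44 in knockout and 10.89, 11.04 and 11.17 in wild type. Those arrays did not overlap, yet the change of 0.33 was small beside its SE (adjusted p = 0.816). The second probe set of Iigp1 was higher in knockout in all 5 tissues too, by 1.29 in testis, 0.57 in liver, 1.28 in muscle, 1.34 in brain and 1.37 in heart. The 2 probe sets differed most in testis. With the second probe set in place of the first the brain change was not called (adjusted p = 0.149), nor was the difference between tissues described further on (adjusted p = 0.594).

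Tgtp1, an effector also called Irgb6, had the highest changes of the 6 genes in testis and brain. Testis knockout arrays read 6.13, 5.77 and 5.36 against 3.61, 3.33 and 3.21 in wild type. Brain knockout arrays read 6.56, 6.50 and 7.06 against 4.36, 4.59 and 4.04. In both tissues the lowest knockout array lay well above the highest wild-type array, and the changes were 2.37 ± 0.29 (SE; limma adjusted p = 1.02e-07) and 2.38 ± 0.29 (adjusted p = 2.59e-05). Muscle read 8.68, 7.83 and 8.04 in knockout and 7.46, 7.17 and 6.36 in wild type, a change of 1.19 (adjusted p = 0.0366). Leaving out muscle knockout replicate 1, knockout replicate 3 or wild-type replicate 3 ended this call (adjusted p = 0.180, 0.0671 and 0.190). Heart read 9.50, 8.72 and 8.83 in knockout and 8.56, 7.99 and 7.91 in wild type, and liver read 7.36, 7.50 and 7.66 against 7.05, 6.06 and 6.73. Knockout arrays were higher without overlap in heart and liver, but the changes of 0.86 (adjusted p = 0.131) and 0.89 (adjusted p = 0.115) were not called.

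Ifi47, an effector also called Irgd, changed by similar amounts in 4 tissues and not in liver. Testis knockout arrays read 4.74, 4.62 and 4.39 against 3.0, 2.61 and 3.01 in wild type, and brain knockout arrays 4.68, 4.55 and 5.02 against 3.45, 3.25 and 3.11. Muscle read 6.2, 5.16 and 6.27 in knockout and 4.56, 4.23 and 4.06 in wild type, and heart 6.80, 6.67 and 6.87 against 5.55, 5.06 and 5.38. The genotypes were separate in all 4, with changes of 1.71 ± 0.30 (SE; limma adjusted p = 2.01e-05), 1.48 (adjusted p = 0.0166), 1.59 (adjusted p = 0.00507) and 1.45 (adjusted p = 0.00680). In liver the knockout arrays read 7.94, 7.92 and 7.94 and the wild-type arrays 7.57, 7.37 and 9.07. The liver change was -0.07 (95% interval -0.69 to 0.56; adjusted p = 0.988) with wild-type replicate 3 above all other liver arrays, and 0.47 (adjusted p = 0.481) without that array. The heart call of Ifi47 was lost without heart wild-type replicate 2 (1.32; adjusted p = 0.0501), as was that of Iigp1 (1.12; adjusted p = 0.183), and 3 genes were then called in heart. In brain, the calls of Ifi47, Igtp and Irgm1 were lost without knockout replicate 3 (adjusted p = 0.134, 0.153 and 0.0843). Those of Ifi47 and Igtp were lost without wild-type replicate 3 as well (adjusted p = 0.0769 and 0.0684), and that of Igtp without knockout replicate 2 (adjusted p = 0.0924).

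Averaged over the 5 tissues, each of the 6 genes was higher in knockout. The mean changes were 1.54 ± 0.13 for Tgtp1, 1.41 ± 0.15 for Iigp1, 1.36 ± 0.14 for Igtp, 1.23 ± 0.13 for Ifi47, 1.07 ± 0.14 for Irgm2 and 0.89 ± 0.10 for Irgm1 (SE; limma adjusted p between 1.54e-09 and 1.12e-06). The share of all genes called higher in this mean was 17.1%. Without the testis arrays, a choice made after the data were seen, 1.6% of all genes were called higher in the mean of the other 4 tissues, and all 6 members were among them, with means between 0.97 and 1.40 (adjusted p between 1.28e-05 and 0.000341).

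The size of the change differed between tissues for 4 of the 6 genes in the moderated F test, in which 52.3% of all genes were called. These were Tgtp1 (adjusted p = 0.00176), Irgm1 (adjusted p = 0.00340), Ifi47 (adjusted p = 0.00419) and Iigp1 (adjusted p = 0.00957). Igtp and Irgm2 were not called (adjusted p = 0.0647 and 0.0704). Without the testis arrays none of the 6 was called (adjusted p between 0.104 and 0.313), when 1.43% of all genes were, although all 6 had an unadjusted p below 0.05. The heart change was the highest for each of the 3 regulators, and the testis or the brain change for each of the 3 effectors. For Iigp1 this depended on the probe set, since its second probe set changed most in heart (1.37, against 1.34 in brain and 1.29 in testis). Changes of Ifi47 were near ties, at 1.71 in testis, 1.59 in muscle, 1.48 in brain and 1.45 in heart (SE 0.30). Without heart knockout replicate 1 the heart changes of Igtp, Irgm1 and Irgm2 were 1.66, 1.31 and 1.59. Their brain changes were 1.53, 1.26 and 1.11. The Iigp1 values that follow are those of the probe set with the higher mean. The heart change stood above the mean of the other 4 tissues by 0.99 ± 0.26 for Irgm1 (adjusted p = 0.0117) and by 1.12 ± 0.34 for Irgm2 (adjusted p = 0.0286), and by 1.0 ± 0.36 for Igtp, which was not called (adjusted p = 0.0603). In heart 7.43% of all genes were called above the other tissues. The testis change stood above the others by 1.07 ± 0.37 for Iigp1 (adjusted p = 0.0175) and by 1.04 ± 0.32 for Tgtp1 (adjusted p = 0.00816), where 32.2% of all genes were called above. The brain change of Tgtp1 stood above by 1.05 ± 0.32 (adjusted p = 0.0377; 6.86% of all genes). In liver the change was below that of the other tissues for Ifi47 by 1.62 ± 0.33 (adjusted p = 0.00186), for Iigp1 by 1.35 ± 0.37 (adjusted p = 0.0166) and for Irgm1 by 0.82 ± 0.26 (adjusted p = 0.0324), against 7% of all genes. Whether regulators as a group differed from effectors was not tested.

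**Figure D3:**
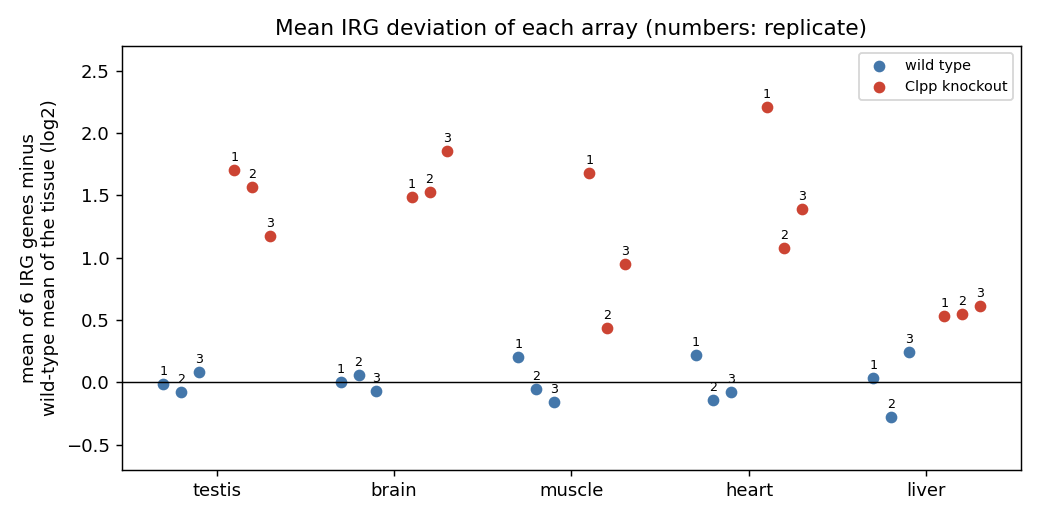
Mean over the 6 genes of each array's deviation from the wild-type mean of its tissue (vertical axis, log2), with the replicate number above each point. Wild-type arrays (blue) lie between -0.28 and 0.25, and knockout arrays (red) between 0.44 on muscle replicate 2 and 2.21 on heart replicate 1.

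The knockout arrays of a tissue differed most among themselves in muscle and heart. The mean deviation of the 6 genes from wild type was 1.68, 0.44 and 0.95 on the muscle knockout arrays and 2.21, 1.08 and 1.40 on the heart knockout arrays. It was 1.71, 1.57 and 1.18 in testis, 1.49, 1.53 and 1.85 in brain and 0.53, 0.55 and 0.61 in liver. Replicate 1 was the high array in both muscle and heart, and these 2 arrays also held transcripts of hepatocytes. Albumin (Alb), the main plasma protein made by the liver, read 7.30 on muscle knockout replicate 1 and 2.81 to 3.78 on the other muscle arrays. In heart it read 8.33, 6.91 and 5.03 on the knockout arrays and 3.19 to 5.53 on the wild-type arrays, against 13.5 on the liver arrays. The median of 6 hepatocyte markers was 3.77 on muscle knockout replicate 1 and 3.73 on heart knockout replicate 1, against 2.73 to 2.95 on the other muscle arrays and 3.01 to 3.44 on the other heart arrays. The level of Iigp1 on heart knockout replicate 1 (11.05) was within the range of its level on the wild-type liver arrays. On the same heart array Igtp, Irgm1, Irgm2 and Tgtp1 (9.68, 9.03, 8.77 and 9.50) read above every liver array. Ifi47 (6.80) read below every liver array. The part of liver RNA in these values was not tested.

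Without heart knockout replicate 1 the heart changes were 1.66 for Igtp, 1.31 for Irgm1, 1.59 for Irgm2, 1.44 for Ifi47, 0.79 for Iigp1 and 0.62 for Tgtp1. The first 4 of these were called in limma (adjusted p between 0.000121 and 0.0118). The heart knockout arrays left in that fit were replicates 2 and 3, those with atrial genes. They read 6.91 and 5.03 for Alb, against 3.19 to 5.53 on the wild-type heart arrays. That fit also called 4 genes in muscle, Irgm1 (adjusted p = 0.0403) and Iigp1 (adjusted p = 0.0263) besides Tgtp1 and Ifi47. Without muscle knockout replicate 1 the muscle changes were 1.43 for Ifi47, 0.94 for Tgtp1, 0.80 for Iigp1, 0.50 for Irgm1, 0.34 for Irgm2 and 0.15 for Igtp. Only Ifi47 was then called in muscle (adjusted p = 0.0431). With heart knockout replicates 2 and 3 left out instead, a choice made after the data were seen, the knockout arm was the 1 array with the most liver transcripts, and it was assumed to vary like the other groups. In that fit 4 of 6 were called in heart, and Tgtp1 (1.35; adjusted p = 0.151) and Ifi47 (1.48; adjusted p = 0.151) were not.

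Of the other family genes, 3 had a probe set of their own. Irgc1, a family gene expressed in testis, fell by 5.02 ± 0.26 in testis (SE; limma adjusted p = 1.42e-14), from 8.84 in wild type to 3.82 in knockout. Irgq, a family member with an altered GTPase domain, rose by 1.07 ± 0.15 in testis (adjusted p = 1.14e-06). Neither was called in another tissue, and Gm12185, which carries the pair of motifs described above, was not called in any tissue and lay between 2.49 and 3.0 in all groups. In testis, where 32.8% of all genes rose and 23.4% fell, all 10 sperm markers fell (median change -4.22). All 11 Sertoli and all 6 Leydig markers rose there (medians 1.81 and 1.62). The testis changes of the 6 members stand beside that shift, and its part in them was not tested.

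Guanylate-binding proteins, a related family of larger interferon-induced GTPases that act on the same vacuoles, also rose. Of 7 measured, 4 rose in testis, 2 in liver, 2 in muscle, 3 in brain and 4 in heart, and none fell. The shares of all genes called higher were 32.8%, 0.912%, 0.778%, 0.234% and 1.11% in the same order. Median changes of the 7 were 0.98 in testis, 0.43 in liver, 0.75 in muscle, 0.95 in brain and 0.97 in heart. Gbp3 rose by 1.60 ± 0.22 in testis and Gbp10 by 1.77 ± 0.25 in brain and 1.66 ± 0.25 in heart. Gbp2b, Gbp4 and Gbp8 lay under 4 in every group and were not called in any tissue.

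The interferons themselves were near the array medians. Ifng, which encodes interferon-gamma, lay between 2.40 and 2.74 in all 10 groups and its mean change was 0.04 ± 0.04 (adjusted p = 0.549). The list of 8 ligand genes also held Il12a, Il12b and Il18, which do not encode interferons. Wild-type means of Il18 were 7.36 in liver and 6.94 in brain, and that of Il12a was 4.94 in muscle. Of the 8 genes limma called none in liver, muscle, brain or heart (1 in liver had an unadjusted p below 0.05). Il18, a cytokine that promotes interferon-gamma release, rose in testis by 1.27 ± 0.27. Of 7 receptor and kinase genes, 5 rose in testis, among them Jak1, Jak2, Ifnar2 and Ifnar1 (1.99, 1.58, 1.41 and 1.24), and limma called none elsewhere, where 1 per tissue had an unadjusted p below 0.05. The transcription factors were more varied. Irf7, the factor that amplifies type I interferon responses, rose in liver (1.36), muscle (1.32), brain (0.93) and heart (2.62), and Irf9 (1.46) and Nlrc5 (1.54), an activator of class I genes, rose in heart. In testis 4 of 9 factors rose, including Irf1 and Irf8 (both 1.14), and 2 fell, one of them Nlrc5 (-1.29), which is near the shares of all genes in testis (32.8% and 23.4%). Among 7 inhibitors of the pathway, Usp18, which blocks the type I interferon receptor, was the one called in every tissue, with changes of 0.97 in testis, 2.03 in liver, 1.88 in muscle, 2.20 in brain and 4.06 in heart. Its wild-type means were under 4 in testis, muscle, brain and heart, so the size of those changes is uncertain.

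Targets of interferon-gamma and of type I interferons were counted separately. Of all genes, 32.8% were called higher and 23.4% lower in testis. The shares called higher elsewhere were 0.912% in liver, 0.778% in muscle, 0.234% in brain and 1.11% in heart. Of 13 other genes known as interferon-gamma targets, 7 rose and 1 fell in testis, 1 rose in liver, none in muscle, 1 in brain and 2 in heart. Outside testis these were the chaperone Tapbp in liver (0.74), the immunoproteasome subunit Psmb8 in brain (1.40) and Cd274 and Cxcl10 in heart (1.15 and 1.06). An unadjusted p below 0.05 in limma was seen for 1 of the 13 in liver, 5 in muscle, 3 in brain and 7 in heart. In the mean of 5 tissues 10 of the 13 were called higher, where 17.1% of all genes were. Of 16 type I interferon targets, 8 rose and 2 fell in testis, and 11 rose in liver, 11 in muscle, 9 in brain and 12 in heart. At an unadjusted p below 0.05 in limma there were 14 of the 16 in liver, 12 in muscle, 13 in brain and 16 in heart. In the mean of 5 tissues 14 of the 16 were called higher. Ifit1, an RNA-binding antiviral protein, rose by 1.83 in liver, 2.23 in muscle, 2.73 in brain and 3.86 in heart. In liver the type I targets had a median change of 0.90, above the 0.52 of the 6 members, and in heart 1.40 beside 1.57. The 10 genes of Atg8 conjugation, whose products deliver the effector GTPases to vacuoles, were counted too. In testis 6 rose and 3 fell, where 32.8% of all genes rose and 23.4% fell, 1 fell in liver (Gabarapl2, -0.54), and limma called none in muscle, brain or heart, where 0, 0 and 2 had an unadjusted p below 0.05.

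**Figure D4:**
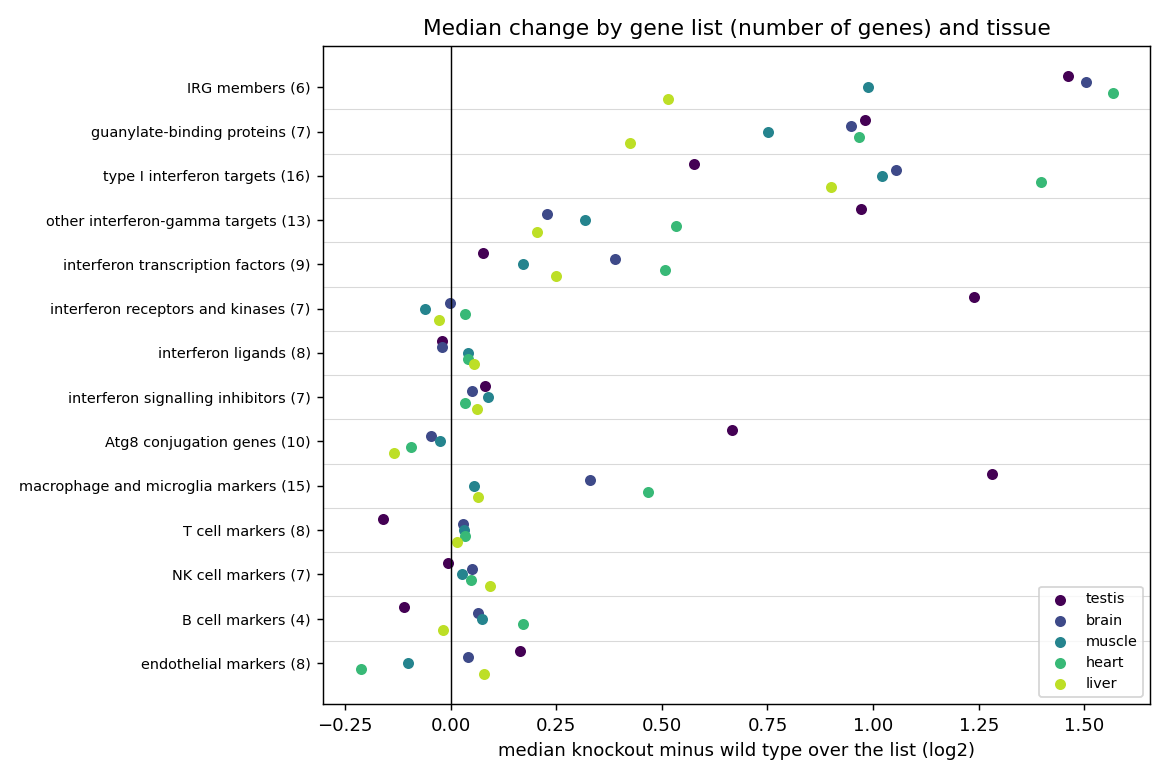
Median knockout minus wild type (horizontal axis, log2) of each gene list in each tissue, with the number of measured genes in brackets. The 6 members lie between 0.52 and 1.57. The ligands and inhibitors lie near 0 in every tissue, and the receptors and kinases lie near 0 outside testis. The macrophage markers lie highest in testis (1.28).

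Markers of immune cells are given beside the members. Of 15 macrophage and microglia markers, 11 rose and 1 fell in testis (median change 1.28), where 32.8% of all genes rose and 23.4% fell. Of the same 15, limma called none in liver, muscle or brain (0, 2 and 2 at an unadjusted p below 0.05). In heart limma called 1 (Fcgr1, 0.59), and 8 had an unadjusted p below 0.05. The summed linear level of the 15 ran from 861 to 964 in brain knockout and from 603 to 806 in brain wild type. In heart it ran from 1693 to 2659 in knockout and from 1274 to 1655 in wild type, and in liver from 993 to 1200 against 909 to 947. In testis it ran from 1169 to 1516 against 1654 to 2136, lower in knockout, with Aif1 falling from 10.6 to 6.50, and in muscle from 405 to 573 against 290.0 to 530. Among the testis knockout arrays the median macrophage level was highest on replicate 1 (5.77, against 4.97 and 4.99), and among the brain knockout arrays on replicate 3 (5.03, against 4.91 and 4.92), and on both of these arrays the members were highest too. Among the heart knockout arrays it was lowest on replicate 1 (5.29, against 5.75 and 6.56), where the members were highest. The muscle knockout arrays also had it lowest on replicate 1 (4.15, against 4.23 and 4.39), where the members were highest. Among the liver knockout arrays it was highest on replicate 2 (5.02, against 4.64 and 4.85), and the members were highest on replicate 3. The part of macrophages in the changes of the members was not tested.

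Markers of lymphocytes were low throughout. Of 8 T cell markers 1 fell in testis and 1 rose in muscle, of 7 NK cell markers 1 fell in testis, and of 4 B cell markers 1 rose in heart. Cd3e, part of the T cell receptor complex, lay between 3.05 and 3.49 in all groups, and Ncr1, an NK cell receptor, between 2.36 and 2.59. Of 8 endothelial markers 1 rose and 1 fell in testis and none was called elsewhere. At an unadjusted p below 0.05 in limma there were 0 of the 8 in liver, 1 in muscle, 0 in brain and 3 in heart. Their median change in heart was -0.21. In the same order of tissues the counts were 1, 2, 0 and 2 of the T cell markers. They were 1, 0, 0 and 1 of the NK cell markers and 0, 0, 0 and 1 of the B cell markers. The difference between 3' and 5' probe sets of Gapdh, a measure of RNA integrity, was 0.51 to 0.57 in testis knockout and 0.86 to 1.17 in testis wild type, and 0.86 to 1.66 in liver knockout and 0.77 to 1.03 in liver wild type. It lay between 0.22 and 0.42 in muscle, brain and heart. The same difference for actin did not overlap between genotypes in liver (1.79 to 2.39 in knockout and 1.67 to 1.77 in wild type) or in testis (1.14 to 1.30 in knockout and 1.39 to 2.03 in wild type). The part of RNA integrity in the changes was not tested.

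The genes most like the 6 members over the 30 arrays were ranked by the Pearson correlation of their deviation from the wild-type mean of the tissue with the mean deviation of the members. Among 9743 genes with a group mean of at least 6 in any group, the first 5 were Psmb8 (0.90), Gbp2 (0.89), Rtp4 (0.89), the class I gene H2-K1 (0.88) and Gbp3 (0.88). These values are descriptions over arrays that share tissues and genotypes. By the same measure each member correlated with the mean of the other 5 at between 0.82 and 0.91. Pairs of members were closest for Igtp and Irgm2 (0.94) and for Iigp1 and Tgtp1 (0.92), and least close for Irgm2 and Tgtp1 (0.61). These values include the shift between genotypes that the members share. With the mean of each group removed, Igtp and Irgm2 stood at 0.84, Iigp1 and Tgtp1 at 0.60 and Irgm2 and Tgtp1 at 0.49, and the lowest pair was Igtp and Ifi47 (0.20).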

How the data were processed

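RNA was labelled with biotin and hybridised to 30 arrays, 3 per tissue and genotype. The deposited values are log2 expression values made by the authors with RMA in R 2.14.0, per the submitters' processing notes. Whether all arrays were normalized together is not given in the sources used here, and no further normalization was applied. Of 45141 probe sets, 28898 had 1 gene symbol, 551 several and 15692 none. The probe set with the highest mean stood for each of 17097 genes. A single limma 3.58.1 fit (R 4.3.3) of 10 group means, with 20 residual degrees of freedom, gave 2-sided tests with Benjamini-Hochberg adjustment over all genes, called below 0.05. The number of arrays limits the precision. The script was tested on simulated data for the liver comparison with 17097 genes and 200 changed ones: 44 of 50 genes raised by 1 were recovered and 17 of 50 raised by 0.5.

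The members, the gene lists and the alternatives were chosen with earlier results of these data known. The text names all 6 members, up to 4 called genes of a list and the 5 genes most like the members. Alternatives covered normalization, filters, probe set choice, the prior, array weights, blocking and leaving out each array. In no tissue did all same-numbered replicate pairs deviate together with a correlation over 0.1, so the numbers were not taken as pairs. Promoter stretches are RefSeq's for GRCm38.p6, and array values of genes without a probe set of their own were not used here.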

Additional observations from a re-analysis of the deposited data

Results flagged for a closer look

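The change in knockout differed between the 5 tissues for 4 of the 6 genes in the moderated F test of the limma fit. The adjusted p was 0.00176 for Tgtp1, 0.00340 for Irgm1, 0.00419 for Ifi47 and 0.00957 for Iigp1, in a test that called 52.3% of all genes. Tgtp1 ranged from 0.86 in heart to 2.38 in brain, and Iigp1 from 0.33 in liver to 2.27 in testis. Irgm1 ranged from 0.23 in liver to 1.68 in heart, and Ifi47 from -0.07 in liver to 1.71 in testis. With its second probe set Iigp1 was not called in the F test (adjusted p = 0.594). None of the 4 was called without the testis arrays.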

How the results depend on the processing

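The 6 genes were refitted under 14 other settings and with each of the 30 arrays left out in turn. Of 486 values under the other settings, 458 kept their direction and side of the threshold, 19 lost a call, 8 gained one and 1 reversed. Of 1080 values with 1 array left out, 1028 kept both, 46 lost a call, 5 gained one and 1 reversed. The reversed value was that of Ifi47 in liver, at 0.23 with array weights and 0.47 without wild-type replicate 3, and values with 1 array left out ran from -0.38 to 0.47. With each tissue fitted alone, 0 genes were called in muscle and 1 in heart. With array weights 2 were called in liver. Without the testis arrays 0 were called in liver and 1 in muscle, and 0 differed between tissues. Without heart knockout replicates 2 and 3 together, 4 were called in muscle. Fits of 1 tissue alone or without testis take the spread from fewer arrays, and the single fit pools it over all groups. The cause of these shifts was not tested. With 1 array left out, 4 to 6 genes were called in testis, 0 to 1 in liver, 1 to 4 in muscle, 2 to 6 in brain, 3 to 5 in heart and 6 to 6 in the mean of 5 tissues, and 4 to 6 differed between tissues. The replicate numbers as a block moved Irgm1 in testis to an adjusted p of 0.0545 and Iigp1 in muscle to 0.00728, and Igtp between tissues to 0.0258. In testis, levels near the array medians limit what can be said of size.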

Other observations

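Each gene's smallest change fell in the tissue of its highest wild-type level for 5 of the 6 members (83.3%), all but Igtp, and for 41.3% of all genes. Among 247 other genes higher in at least 4 tissues with a mean change over 0.5, a set picked by its own changes, the share was 22.3%. For the members Irgm1, Irgm2, Iigp1 and Ifi47 the tissue was liver, and for Tgtp1 it was heart. The count of 5 rests in part on near ties. Tgtp1 changed by 0.86 in heart and 0.89 in liver, and Irgm2 by 0.70 in liver, 0.78 in testis and 0.79 in muscle, differences well within their SE (0.29 and 0.30). The comparison was chosen after the values were seen, and the wild-type mean enters both the level and the change.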
